A study of Mus musculus with 3 samples.

Results

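The genes that make prostaglandins and leukotrienes from arachidonic acid were followed in mouse macrophages. The set held 10 genes of 55536 annotated genes in the tables, chosen by name and function and not by level: Pla2g4a, Ptgs1, Ptgs2, Ptges, Ptges2, Ptges3, Alox5, Alox5ap, Lta4h and Ltc4s. Earlier results of these data were known when the genes and the tests were chosen. Each symbol matched 1 gene ID. The cells were bone-marrow-derived macrophages, which are grown from marrow into macrophages in culture, of the C57BL/6J strain with no allele or transgene named. They had received Lipid A, the part of bacterial lipopolysaccharide that Toll-like receptor 4 recognises, at 100 ng/ml for 12 hours, were then kept without it for 12 hours, and were given 100 ng/ml again for 40 minutes. Ribosomal RNA was depleted from total RNA of the cytosolic fraction, and 3 libraries of this single group, named replicates 1, 2 and 3, were sequenced. Age and sex were not collected. The labels call the libraries biological replicates that share a donor label, and whether the cultures came from separate animals is not given. The p-values therefore reach no further than the spread between these samples and, unless stated, also use variance borrowed from other genes. Untreated cells and cells stimulated once were not analysed here, so every value is a level and none is a response.

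Eicosanoid synthesis starts when cytosolic phospholipase A2, the product of Pla2g4a, frees arachidonic acid from membrane lipids. The cyclooxygenases Ptgs1 and Ptgs2 turn it into prostaglandin H2, which the synthases Ptges, Ptges2 and Ptges3 can convert to prostaglandin E2. In the other branch 5-lipoxygenase, encoded by Alox5, works with its membrane partner Alox5ap to make leukotriene A4, which Lta4h hydrolyses to leukotriene B4 and Ltc4s joins to glutathione to give leukotriene C4. In macrophages Ptgs2 and Ptges are textbook genes of the inflammatory response, whereas Ptgs1 is usually described as constitutive.

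Expected counts on annotated genes came to 38197192, 46327891 and 38685666 in replicates 1, 2 and 3. Levels are given in TPM, a unit per length and depth that allows genes to be compared within a library. The 7SL RNA held between 54.4% and 63.0% of all TPM and nuclear protein-coding genes only 27.7% to 33.3%, so each TPM below is a share of a total made mostly of 7SL. Macrophage markers were present throughout: 10 of 10 were detected, led by the lysozyme gene Lyz2 at 3551.65, 2454.97 and 3052.13 TPM. A gene counts as detected where each of the 3 libraries has at least 1 TPM. Among lists for other sources of eicosanoids, 1 of 8 mast cell markers was detected (Hdc at 2.56 ± 0.938 TPM, SD, n = 3), 0 of 6 eosinophil markers (highest Ccr3 at 0.39 TPM), 2 of 9 neutrophil markers (highest S100a9 at 4.55 TPM), 1 of 8 platelet markers (Pf4 at 77.9 ± 2.55 TPM), 0 of 7 fibroblast markers (highest Pdgfrb at 0.027 TPM), 2 of 6 endothelial markers (highest Kdr at 5.16 TPM) and 0 of 6 dendritic cell markers (highest Clec9a at 0.08 TPM). The defining mast cell protease gene Cpa3 was at 0.01 to 0.03 TPM and the neutrophil gene Ly6g was at 0 in each library.

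The 5′ ends of both cyclooxygenase genes and of Ptges are shown because these genes act in sequence and differ in level and in spread between libraries. Each stretch runs from 250 bases before to 50 bases after the start that RefSeq gives on GRCm38.p6, the build also called mm10. Capitals mark matches, on either strand, to 7 motifs that were searched: the CRE core TGACGT, the E-box CACGTG, the C/EBP palindrome TTGCGCAA, the AP-1 motif TGANTCA, the NF-kB motif, the GC box GGGCGG and the TATA box TATAAA.
Ptgs2, chr1:150099781-150100080, plus strand: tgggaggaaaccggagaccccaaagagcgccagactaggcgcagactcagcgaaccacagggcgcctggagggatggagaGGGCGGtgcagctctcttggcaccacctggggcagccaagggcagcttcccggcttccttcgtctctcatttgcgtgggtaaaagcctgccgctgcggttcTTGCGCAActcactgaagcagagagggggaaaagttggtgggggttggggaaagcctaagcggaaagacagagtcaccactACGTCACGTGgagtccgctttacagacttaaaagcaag
Ptgs1, chr2:36230176-36230475, plus strand: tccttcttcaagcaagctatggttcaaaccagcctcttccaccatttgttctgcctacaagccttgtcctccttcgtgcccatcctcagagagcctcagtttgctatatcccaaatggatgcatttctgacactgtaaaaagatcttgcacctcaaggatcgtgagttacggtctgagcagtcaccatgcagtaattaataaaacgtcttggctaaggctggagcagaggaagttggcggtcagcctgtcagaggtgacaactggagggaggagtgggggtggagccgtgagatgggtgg
Ptges, chr2:30903248-30903547, minus strand: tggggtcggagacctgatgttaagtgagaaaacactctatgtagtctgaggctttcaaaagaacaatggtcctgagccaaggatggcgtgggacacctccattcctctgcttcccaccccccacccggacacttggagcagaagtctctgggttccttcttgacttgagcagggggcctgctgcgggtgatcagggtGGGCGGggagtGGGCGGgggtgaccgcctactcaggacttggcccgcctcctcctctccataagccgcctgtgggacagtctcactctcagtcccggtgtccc

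In the Ptgs2 stretch the C/EBP palindrome lay at positions -69 to -62 from the annotated start, where the first annotated base is 1. Where transcription starts in these cells was not measured. The CRE core, on the opposite strand at 13 to 18, overlapped the E-box at 17 to 22, and a GC box lay at -170 to -165. The Ptgs1 stretch matched none of the 7 motifs. The Ptges stretch held 2 GC boxes, at -53 to -48 and at -42 to -37, and its RefSeq start lies 26566 bases inside the outermost start of the gene model used for counting. Of 32851 mouse promoter stretches of the same length, 0.183% held the C/EBP palindrome, 7.51% the CRE core, 7.15% the E-box and 35.7% a GC box. The AP-1, NF-kB and TATA motifs, held by 7.81%, 4.51% and 13.6%, were not found in any of these 3 stretches. Sequence outside the stretches was not searched, so sites further from the annotated start would be missed. Of the 10 genes, 9 had an entry in the RefSeq table, and Alox5ap was not among them. These are matches of letters and no measurement of binding.

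Of the 10 genes 8 were detected, Alox5 and Ltc4s being the exceptions, while 41.4% of 22028 protein-coding genes were detected by the same threshold. The median of the 10 mean levels was 6.68 TPM, beside 0.18 TPM over all protein-coding genes and 8.61 TPM over the detected ones. In order of mean level the genes were Alox5ap, Ptges3, Ptgs2, Lta4h, Pla2g4a, Ptges, Ptges2, Ptgs1, Ltc4s and Alox5. Of the 9 steps between neighbours in this order, 3 had overlapping ranges over the libraries, namely Ptges3 to Ptgs2, Ptgs2 to Lta4h and Pla2g4a to Ptges. The other 6 did not overlap.

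**Figure D1:**
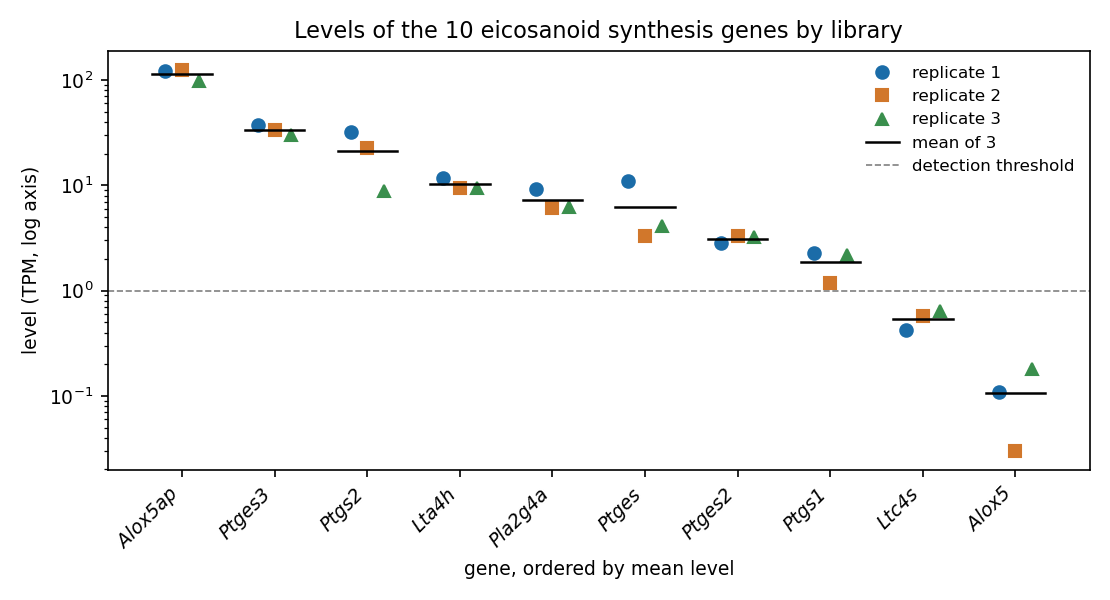
Level in TPM (log axis) of each of the 10 genes in replicates 1, 2 and 3, with black bars for the mean of 3 and a dashed line at the detection threshold of 1 TPM. Alox5ap stands above all others in each library, Ltc4s and Alox5 lie under the line, and the points of Ptgs2 and Ptges are the most spread of the 8 detected genes.

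Pla2g4a, the phospholipase that supplies arachidonic acid, lies on chromosome 1, 149829618 to 149961290, minus strand. It had 9.17, 6.12 and 6.27 TPM in replicates 1, 2 and 3, or 7.19 ± 1.72 TPM (SD, n = 3). Replicate 1 was the highest and the other 2 were close together. Ptgs2 lies 138740 bases away on the opposite strand, and no correlation between the neighbours can be given with 3 libraries.

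The inducible cyclooxygenase gene Ptgs2 (chromosome 1, 150100031 to 150108227, plus strand) had 32.38, 22.85 and 8.88 TPM in replicates 1, 2 and 3. Replicates 1 and 2 were high and replicate 3 low, with a mean of 21.4 ± 11.8 TPM and a highest value 3.65 times the lowest. These values rest on 7547, 7770 and 2491 expected counts, so counting error is small beside the gap. Ptgs1 (chromosome 2, 36230426 to 36252272, plus strand), the constitutive form, had 2.26, 1.18 and 2.16 TPM, or 1.87 ± 0.597 TPM. Here replicate 2 was the low one, and no library of Ptgs1 reached the lowest library of Ptgs2. Within each library Ptgs2 exceeded Ptgs1 by 3.36, 3.45 and 1.64 on the log2(TPM + 1) scale, a mean of 2.82 ± 0.35 (SE, n = 3; limma, adjusted p = 0.000449, higher in 3 of 3 libraries). Of 10248 genes set against Ptgs1 in the same way, 77.9% differed from it at an adjusted p under 0.05, since most genes differ in level. With only the spread of the 3 within-library differences (SD 1.02, SE 0.59) and no variance borrowed from other genes, the call was lost (adjusted p = 0.0579 from a limma fit without moderation).

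Ptgs2 also lay above the phospholipase gene Pla2g4a, by 1.71, 1.74 and 0.44 on the log2 scale in replicates 1, 2 and 3. The mean difference was 1.30 ± 0.35 (SE; limma, adjusted p = 0.0148, higher in 3 of 3 libraries), and 77.8% of genes passed against Pla2g4a. The call was lost when replicate 1 was left out (1.09; adjusted p = 0.0731 with limma) and when replicate 2 was (1.08; adjusted p = 0.0582 with limma), and kept without replicate 3 (1.73). It was also lost without moderation, where the SE of the within-library differences was 0.43 (adjusted p = 0.117 from limma).

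Of the prostaglandin E synthase genes Ptges3 was the highest in each library. Ptges3 (chromosome 10, 128058954 to 128077272, plus strand), whose protein is also the Hsp90 co-chaperone p23, had 37.48, 33.48 and 29.81 TPM, with a narrow spread around 33.6 ± 3.84 TPM. Ptges (chromosome 2, 30889471 to 30929863, minus strand), the inducible microsomal synthase, had 11.03, 3.33 and 4.15 TPM, or 6.17 ± 4.23 TPM. Replicate 1 stood 3.31 times above replicate 2, and replicates 2 and 3 were close. Ptges2 (chromosome 2, 32395896 to 32405772, plus strand), a second membrane-associated synthase, had 2.82, 3.31 and 3.24 TPM (3.12 ± 0.265 TPM). Its highest value was 1.17 times the lowest, but this evenness depended on the total used. Scaled to the sum of nuclear protein-coding genes only, the values were 8.46, 11.8 and 11.7 in replicates 1, 2 and 3. Replicate 1 was then the low one and the ratio was 1.39.

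Ptges less Ptges3 was -1.68, -2.99 and -2.58 on the log2(TPM + 1) scale in replicates 1, 2 and 3. The mean difference was -2.42 ± 0.30 (SE; limma, adjusted p = 0.000337, lower in 3 of 3 libraries), and that of Ptges2 to Ptges3 was -3.06 ± 0.14 (limma, adjusted p = 4.66e-06, lower in 3 of 3). Against Ptges3, 92.2% of genes passed. Ptges and Ptges2 did not differ at an adjusted p under 0.05, although the ranges of their libraries did not overlap. Ptges was higher by 1.65, 0.0067 and 0.28 in replicates 1, 2 and 3, a mean of 0.65 ± 0.30 (limma, adjusted p = 0.0873). Against Ptges2, 81.1% of genes passed. Without replicate 1 the difference was 0.14 (limma, adjusted p = 0.359). It passed when replicate 2 was left out, at 0.97 (adjusted p = 0.0299 from limma), and when replicate 3 was, at 0.83 (adjusted p = 0.0124 from limma). From the spread of the within-library differences alone, without moderation, the SE for Ptges to Ptges2 was 0.51 (adjusted p = 0.366 from limma). That for Ptges to Ptges3 was 0.39 (adjusted p = 0.0288 from limma) and that for Ptges2 to Ptges3 was 0.14 (adjusted p = 0.00427 from limma). Ptges3 has a processed pseudogene, Ptges3-ps, listed at 3.72, 7.34 and 5.46 TPM; the expected counts of Ptges3 are not whole, as happens where reads are shared between similar sequences, and how they were split is uncertain.

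The leukotriene branch had the highest and the lowest gene of the set. Alox5ap (chromosome 5, 149264767 to 149288153, plus strand), which presents arachidonic acid to 5-lipoxygenase, had 122.52, 125.34 and 97.87 TPM, or 115 ± 15.1 TPM. That mean was higher than those of 98.2% of protein-coding genes. Alox5 (chromosome 6, 116410077 to 116461178, minus strand), the lipoxygenase itself, had 0.11, 0.03 and 0.18 TPM. It had 10, 2 and 11 expected counts, 23 in all (exact 95% Poisson interval 14.6 to 34.5, counting error only), so its level was above a count of 0 but no spread between libraries can be read from it. At these depths 3 counts, the bound that a count of 0 allows, equal 0.0785, 0.0648 and 0.0775 CPM in replicates 1, 2 and 3, and replicate 2 of Alox5 was under it.

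Alox5ap exceeded Alox5 by 6.80, 6.94 and 6.39 on the log2(TPM + 1) scale, a mean of 6.71 ± 0.14 (SE; limma, adjusted p = 3.08e-07, higher in 3 of 3 libraries). Against a gene this low nearly everything passes, 99.4% of 10249 genes, and the size depends on the pseudocount: with 0.1 in place of 1 it was 9.18. Ptgs1 likewise exceeded Alox5, by 1.35 ± 0.17 (limma, adjusted p = 0.000262, higher in 3 of 3 libraries) or 3.27 with a pseudocount of 0.1. From the spread of the within-library differences alone, without moderation, the SE for Alox5ap to Alox5 was 0.16 (adjusted p = 0.00194 from limma). That for Ptgs1 to Alox5 was 0.14 (adjusted p = 0.0117 from limma). In the transcript table made from alignments the coding Alox5 transcript was at 0.03 TPM in replicate 1 and at 0 in replicates 2 and 3, and the rest of the gene's value came from retained-intron and other non-coding models. The nuclear RNA Malat1 had 1445.44, 484.94 and 1726.12 TPM and was, like Alox5, lowest in replicate 2; its part in the Alox5 values was not tested.

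Lta4h (chromosome 10, 93453411 to 93484875, plus strand), the hydrolase for leukotriene B4, was even, with 11.72, 9.43 and 9.47 TPM (10.2 ± 1.31 TPM). Ltc4s (chromosome 11, 50236461 to 50238616, minus strand), the glutathione-conjugating synthase, had 0.42, 0.57 and 0.64 TPM from 10, 19 and 17 expected counts. All 3 libraries of Ltc4s were below the detection threshold and all 3 of Lta4h were above it. Lta4h exceeded Ltc4s by 2.86 ± 0.14 on the log2(TPM + 1) scale (SE; adjusted p = 3.34e-06 from limma). Alox5ap exceeded it by 6.23 ± 0.14 (adjusted p = 4.92e-07 from limma). Both signs held in 3 of 3 libraries, and 98.2% of genes passed against Ltc4s. Without moderation the SE of the within-library differences was 0.15 for Lta4h to Ltc4s (adjusted p = 0.00616 from limma). For Alox5ap to Ltc4s it was 0.16 (adjusted p = 0.00535 from limma). The antisense gene Gm26542 overlaps Ltc4s and had 18, 4 and 20 counts. Whether the counting used strand is not given, so the reads of this overlapping pair may not be separable.

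**Figure D2:**
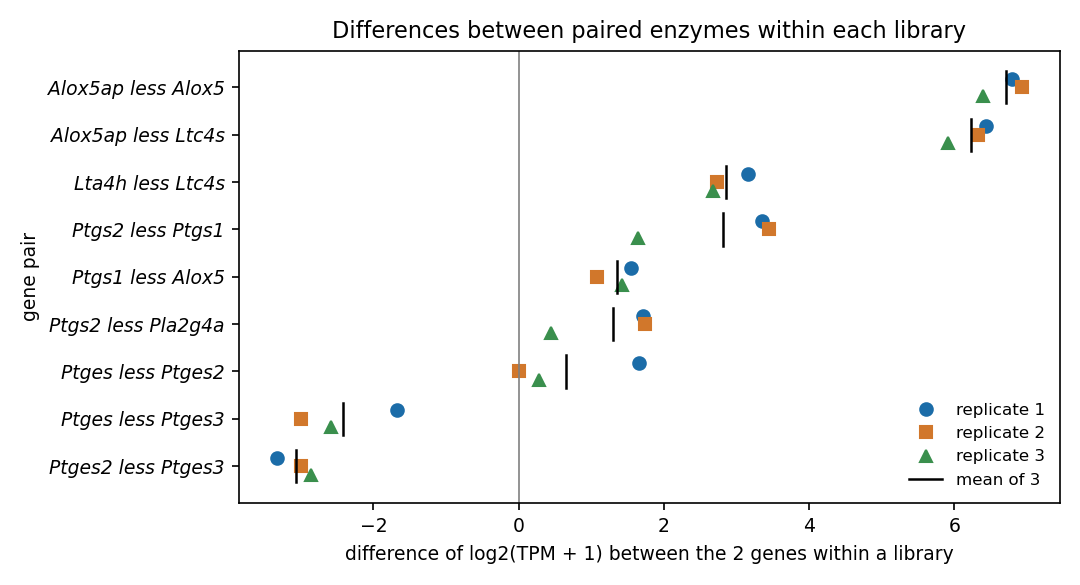
Difference of log2(TPM + 1) between the genes of 9 pairs in replicates 1, 2 and 3, with a black bar at the mean and a grey line at 0. Points of all 3 libraries lie on the same side of 0 for each pair, but for Ptges less Ptges2 the point of replicate 2 lies at 0.0067.

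All 9 pairs kept their sign in 3 of 3 libraries, and 8 of 9 passed at an adjusted p under 0.05 in the limma fit printed above, which adds the moderated variances of both genes as if they were independent. The fit on ratios to a reference gene called 9 of 9, beside 88.2% of all genes over its 6 references, with adjusted p from 4.28e-162 to 0.00586 (limma), the latter for Ptges to Ptges2. Without moderation of the variances 6 of 9 passed, beside 79.6% of all genes, and Ptgs2 to Ptgs1, Ptgs2 to Pla2g4a and Ptges to Ptges2 did not. An exact sign permutation over 3 libraries cannot go below p = 0.25, two-sided.

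The 8 detected genes differed in how much they varied between the libraries. The highest value was over 2 times the lowest for 2 of them, Ptgs2 and Ptges, beside 2.93% of 9118 detected protein-coding genes; the median ratio was 1.39 for the 8 genes and 1.27 for the 9118. The biological coefficient of variation from edgeR, with library sizes normalized, was 0.355 for Ptgs2 and 0.368 for Ptges, against 0.190 as the common value over 12788 genes. Lta4h at 0.101, Ptges3 at 0.104, Pla2g4a at 0.115 and Alox5ap at 0.122 were below the common value, as was Ptges2 at 0.171, and Ptgs1 was at 0.224. Each of these wide spreads rests on 1 library. Without replicate 3 the ratio for Ptgs2 was 1.42, and without replicate 1 that for Ptges was 1.25. The coefficient of Ptgs1 also rests on 1 library: without replicate 2 it was 0.135, equal to the common value of that fit (0.135), and the ratio of its highest to its lowest value fell from 1.92 to 1.05.

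The libraries also stood apart as a whole. Replicate 1 lay above the mean of the other 2 by a median of 0.23 (log2) over detected protein-coding genes, with replicates 2 and 3 at -0.14 and -0.09, and deviations below are less this median. For Ptgs2 they were 0.95, 0.57 and -1.53 in replicates 1, 2 and 3, and only 0.077% of the detected protein-coding genes were lower than Ptgs2 in replicate 3. The sum over the 6 endothelial markers was 14.21, 10.75 and 6.23 TPM in replicates 1, 2 and 3, lowest in the same library. Most of it came from Kdr at 7.55, 5.52 and 2.40 TPM and Vwf at 4.79, 4.38 and 2.70 TPM. Pecam1, at 1.39, 0.72 and 1.01 TPM, was instead lowest in replicate 2. The defining Cdh5 was at 0.12 to 0.47 TPM, Tek at 0 to 0.01 TPM and Cldn5 at 0 in each library. Sums over the mast cell, eosinophil and platelet markers were also lowest in replicate 3. Those over the macrophage, neutrophil, fibroblast and dendritic cell markers were not. The part of any of these markers in the Ptgs2 values was not tested. For Ptges the deviations were 1.34, -0.89 and -0.46, and in replicate 1 Ptges was higher than 99.9% of the detected protein-coding genes. Ptges2 went against Ptges, at -0.45, 0.27 and 0.17. Ptgs1 was low in replicate 2 (-0.77) and high in replicate 3 (0.49), the library where Ptgs2 was lowest. Lta4h stayed between -0.07 and 0.08 in all 3.

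**Figure D3:**
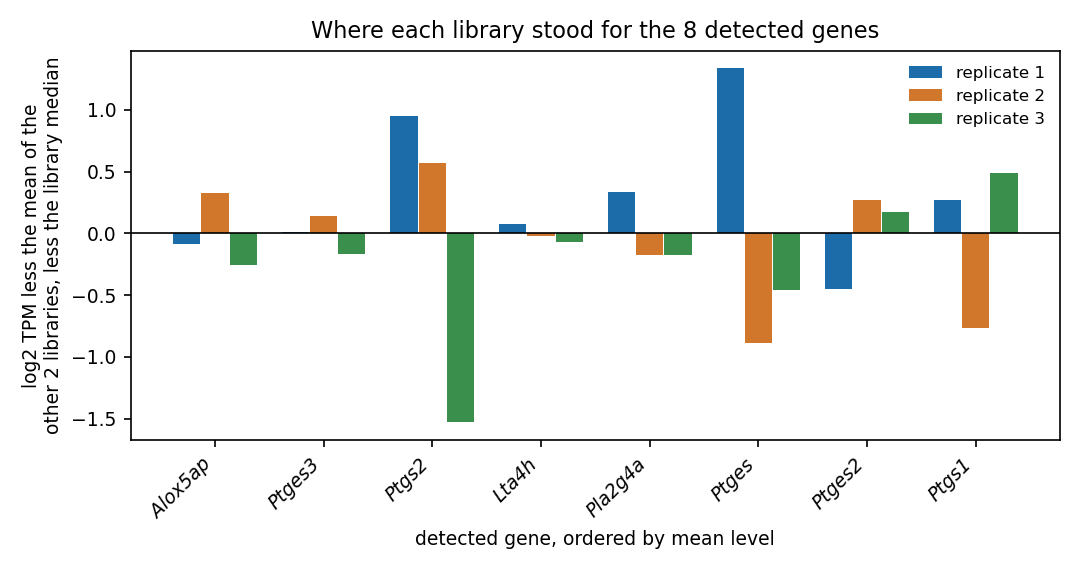
Bars give, for each of the 8 detected genes, the log2 TPM of a library less the mean of the other 2 libraries and less the median of that difference over all detected protein-coding genes. Ptgs2 falls to -1.53 in replicate 3, Ptges rises to 1.34 in replicate 1, and the bars of Lta4h are near 0.

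The genes most like Ptgs2 in level over the 3 libraries, by Euclidean distance of log2(TPM + 1) among protein-coding genes, were Tgtp1, an interferon-inducible GTPase gene (distance 0.48), the anti-inflammatory cytokine gene Il10 (0.61) and the ribosomal protein paralogue gene Rpl22l1 (0.65). Tgtp1 had 24.28, 20.20 and 10.39 TPM and Il10 had 38.02, 22.36 and 13.66 TPM, so both were lowest in replicate 3, as was Ptgs2. Those most like Alox5ap were Naca (0.099), Serpinb6a (0.10) and Rpl4 (0.11). With 3 libraries such likeness is a description only, and a shared low library follows in part from how these genes were picked. Near Ptgs2, the opposite-strand RNA gene Ptgs2os, separated from it by 67 bases, had 0.08, 0.01 and 0.02 TPM. Ptgs2os2, 50815 bases away, had 0.34, 0.23 and 0.08 TPM from 29, 28 and 8 counts, again with replicate 3 lowest.

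The 3′ untranslated regions of the set differed in AU-rich elements, ATTTA pentamers through which decay factors and stabilising proteins act on short-lived mRNAs. That of Ptgs2 (2445 bases) held 14 ATTTA and 1 copy of the nonamer TTATTTATT. The first cluster is shown because it holds 4 pentamers, in capitals, within 30 bases of exon 10 of 10, from base 12 to base 41 after the stop codon.
Ptgs2, chr1:150105794-150105823, plus strand, mm10: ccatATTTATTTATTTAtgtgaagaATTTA

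Of 8969 detected protein-coding genes with such a region, 98.0% had fewer pentamers than Ptgs2 and 94.7% had fewer per kilobase; 65.6% had at least 1 and 6.70% had the nonamer. Pla2g4a, Ptges2 and Ptges3 had 4 pentamers each, and Alox5 and Alox5ap had 2 each. In Pla2g4a they fell in only 443 bases, and 98.5% of genes had fewer per kilobase. Ptgs1, Lta4h and Ltc4s had 0. Ptges also had 0, in 3106 bases. The counts are of letters in the annotated region, and mRNA decay was not measured.

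By share of TPM, transcript models split the genes into those measured almost wholly as coding mRNA and those that were not. Shares below are of the TPM of a gene in the transcript table made directly from reads, with the share in the table made from alignments in second place. Coding transcripts held 100% and 100% of Ptgs2, 98.8% ± 0.540 and 99.8% ± 0.212 of Ptges3, and 88.0% ± 4.69 and 87.6% ± 1.79 of Lta4h (SD, n = 3). They held 81.9% ± 13.1 and 95.8% ± 3.28 of Pla2g4a and 78.6% ± 9.01 and 89.1% ± 5.05 of Ptgs1. For Alox5ap they held 74.0% ± 4.46 and 62.6% ± 2.44, the rest being the processed transcript Alox5ap-204. Counted by expected counts instead, coding transcripts held 96.8% of Lta4h, 97.2% of Pla2g4a, 98.1% of Ptgs1 and 83.5% of Alox5ap.

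Ptges2 stood apart, with coding shares of 18.5% ± 2.87 and 21.3% ± 3.67. Its retained-intron model held 80.2% ± 2.34 and 77.0% ± 2.62. That model is 765 bases long and the coding one 4978, so by expected counts, which are not divided by length, the coding transcript held 70.1% ± 4.33. The coding level of Ptges2 was 0.72, 0.61 and 0.65 TPM in the alignment-based table, below the detection threshold in every library. For Ptges the coding share was 45.5% ± 7.25 in one table and 74.4% ± 4.42 in the other. By expected counts its coding transcript, 3647 bases long, held 95.6% ± 0.888, beside non-coding models of 446 to 703 bases. The coding level of Ptges was 8.64, 2.32 and 3.12 TPM in the alignment-based table. On coding transcripts alone all 3 libraries of Ptges were above all 3 of Ptges2, a difference that was not tested. The same order held at gene level, where the lowest Ptges library had 3.33 TPM and the highest Ptges2 library 3.31 TPM.

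**Figure D4:**
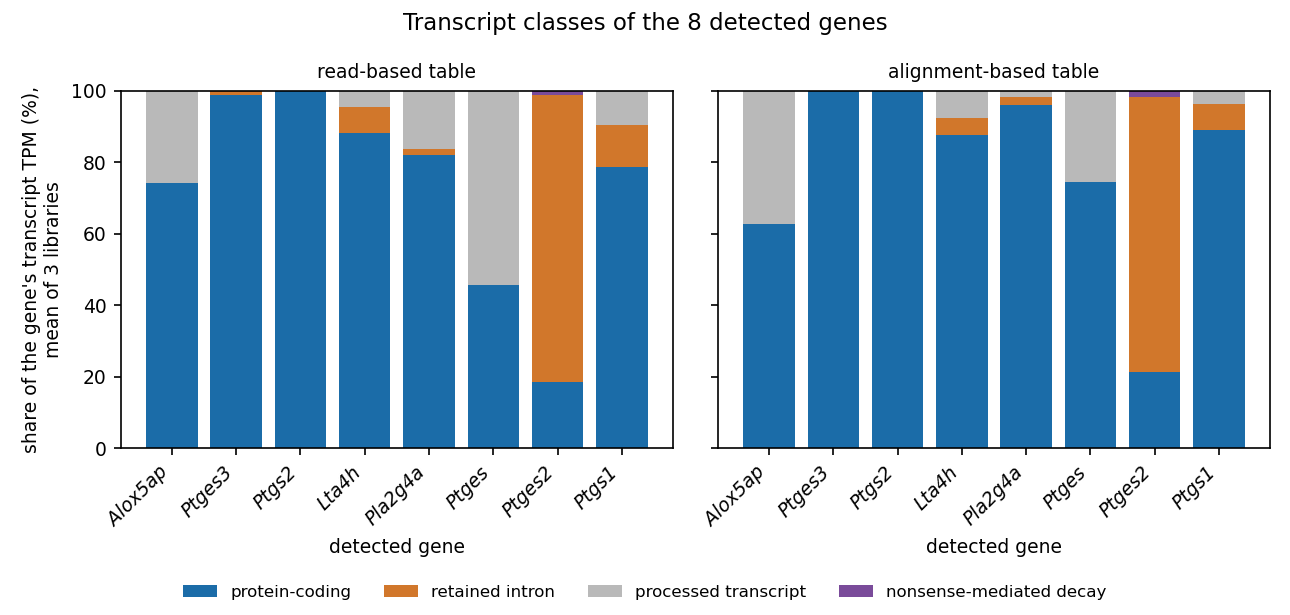
Stacked bars give the mean share (%) of each annotated transcript class in the transcript TPM of the 8 detected genes, in the read-based table (left) and the alignment-based table (right). The retained-intron class fills most of Ptges2 in both tables, and the coding share of Ptges is 45.5% on the left and 74.4% on the right.

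Of 70 further symbols of eicosanoid metabolism and sensing, listed by function, 69 matched a gene (Prxl2b is a newer name of Fam213b, which was also listed), 34 were detected and 31 were below 1 TPM in every library, beside 41.4% detected over all protein-coding genes. Their median mean level was 1.14 TPM. Among phospholipases and genes of arachidonate cycling 14 of 24 were detected, led by Cotl1 at 193 ± 16.1 TPM, whose actin-binding product also binds 5-lipoxygenase, and the lysophospholipid hydrolase gene Abhd12 at 105 ± 9.91 TPM. Cotl1 had 209.42, 177.23 and 192.74 TPM beside 0.11, 0.03 and 0.18 TPM for Alox5. The other Pla2g4 genes were not detected: Pla2g4b, Pla2g4c, Pla2g4d, Pla2g4e and Pla2g4f had 0 to 0.17 TPM in any library, so Pla2g4a was the only detected gene of the 6 in that group.

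Of 12 matched genes for other prostanoid enzymes and transport 8 were detected. Hpgds, the haematopoietic prostaglandin D synthase, led at 68.03, 52.22 and 59.11 TPM, or 59.8 ± 7.93 TPM, and was above Ptges in each library. Akr1b3, an aldose reductase with prostaglandin F synthase activity, had 37.2 ± 4.05 TPM. The thromboxane synthase gene Tbxas1 had 27.72, 17.23 and 23.94 TPM. The prostacyclin synthase gene Ptgis was at 0 in each library, and the prostaglandin-degrading Hpgd was at 0 to 0.01 TPM. None of these differences from Ptges was tested.

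Of 9 prostanoid receptor genes 3 were detected. Ptger4, a prostaglandin E2 receptor that raises cyclic AMP, had 17.73, 10.05 and 12.20 TPM (13.3 ± 3.96 TPM), and Ptgir, the prostacyclin receptor, had 3.34 ± 0.525 TPM. Ptger2, which couples the same way as Ptger4, had 1.44 ± 0.242 TPM. Ptger1 and Ptger3 were under the threshold in at least 1 library, and Ptgdr and Ptgfr were at 0 in each.

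Of 10 other lipoxygenases and epoxide or peroxide enzymes 3 were detected, led by the lipid peroxidase gene Gpx4 at 139 ± 2.95 TPM. Next came Cyp4f18, a hydroxylase of leukotriene B4, at 1.96 ± 0.476 TPM. Alox12, Alox15 and Alox8 reached at most 0.13 TPM, so like Alox5 the other lipoxygenase genes were under the threshold. Of 8 genes for leukotriene conversion and transport 4 were detected, led by the microsomal glutathione transferase gene Mgst1 at 34.2 ± 0.895 TPM and the leukotriene D4 dipeptidase gene Dpep2 at 11.1 ± 2.49 TPM. Mgst2 and Mgst3, relatives of Ltc4s, had 1.13 ± 0.329 and 2.51 ± 0.481 TPM. Of 6 leukotriene receptor genes 2 were detected, the cysteinyl leukotriene receptor genes Cysltr1 at 6.88, 5.68 and 4.43 TPM and Cysltr2 at 7.38, 5.49 and 3.34 TPM. Both were lowest in replicate 3, and the leukotriene B4 receptor genes Ltb4r1 and Ltb4r2 reached at most 0.12 TPM.

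**Figure D5:**
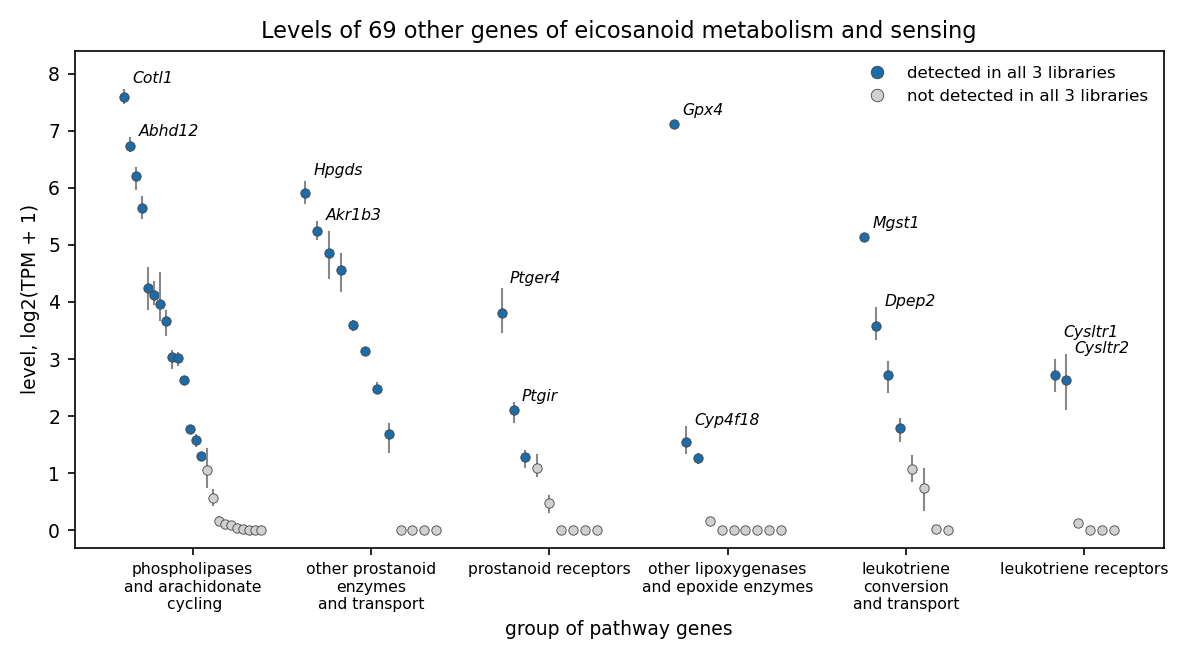
Each point is the mean log2(TPM + 1) over 3 libraries of 1 of 69 pathway genes, grouped by function and sorted by level, with a line from the lowest to the highest library. Blue points (34 genes) are detected in all 3 libraries, grey points are not, and the genes with the highest means in each group are named.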

How the data were processed

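The authors deposited 3 tables per library. The deposited gene table holds expected counts, TPM and FPKM; its layout is that of RSEM, per the file headers. A deposited transcript table made from alignments holds expected counts and TPM, and a deposited transcript table made directly from reads holds estimated counts and TPM in the layout of kallisto, per the file headers. The build is mm10 and the annotation M21, per text files deposited with the tables. No aligner or quantifier version is given in the sources used here.

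Rows that name no gene (26345; 0.356%, 0.125% and 0.104% of expected counts in replicates 1, 2 and 3) were left out. Pairs were tested on log2(TPM + 1), two-sided, with limma 3.58.1 (R 4.3.3) and Benjamini-Hochberg adjustment over all genes at a mean TPM of 1 or more. The planned fit took every gene less the reference gene. A fit that adds the moderated variances of both genes was chosen after seeing the data, and its p-values are the ones printed unless stated. It takes both genes as independent although they share libraries; a fit to the within-library differences without moderation was therefore also added. Since Alox5 was under that filter, its planned pair with Ptgs1 was taken in the direction Ptgs1 to Alox5. The fits were tested on simulated data. Spread was taken from edgeR 4.0.16 with TMM and filterByExpr, after rounding the expected counts; DESeq2 1.42.0 size factors were an alternative. FPKM served as an alternative to TPM. Libraries differed beyond counting noise, with chi-square over degrees of freedom of 44.7 to 113 between pairs. Promoters came from a RefSeq table and 3′ ends from annotation M21.

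The members, lists and tests were chosen with earlier results of these data known. Named genes were all 10 members, the highest genes of each list and the 3 genes most like Ptgs2 and Alox5ap. Others (Ptges3-ps, Gm26542, Ptgs2os, Ptgs2os2, Malat1, Cpa3, Ly6g and the further pathway genes) were named after their values were seen. Dpep2 has more than 1 gene ID in the annotation, and the higher was used. Prxl2b is listed there as Fam213b, so the 70 pathway symbols name 69 genes.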

Additional observations from a re-analysis of the deposited data

How the results depend on the processing

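No paired analysis was possible because all 3 libraries form 1 group, so no samples pair across groups; gene pairs were compared within each library. In the added limma fit without moderation 3 differences kept their size but not their call: Ptgs2 to Ptgs1 at 2.82 (adjusted p = 0.0579), Ptgs2 to Pla2g4a at 1.30 (0.117) and Ptges to Ptges2 at 0.65 (0.366). Each pair difference kept its direction under every alternative that gave a value; the read-based table gave none for Ptgs1 to Alox5, since Ptgs1 was under the filter there. Ptges to Ptges2 was 0.65 with adjusted p = 0.0873 in the limma fit with the variances of both genes, and without replicate 1 it was 0.14 in both limma fits (adjusted p = 0.290 in the planned fit and 0.359 in the other). Leaving out each replicate gave 0.14 to 0.97 for Ptges to Ptges2 and 1.08 to 1.73 for Ptgs2 to Pla2g4a, which lost its call in the latter fit without replicate 1, at 1.09 (adjusted p = 0.0731 from limma), as it did without replicate 2, at 1.08 (adjusted p = 0.0582 from limma). The number of members with a wide spread ranged from 1 to 2 when a replicate was left out, being 1 without replicate 1 or 3. Between 7 and 8 members and between 26 and 37 pathway genes were detected under the other thresholds and tables. TPM rescaled over nuclear protein-coding genes kept all 10 ranks and gave means such as 70.2 for Ptgs2 and 389 for Alox5ap; the read-based table gave 9.15 and 39.4, and Pla2g4a and Ptges changed places there. Low counts limit Alox5 and Ltc4s.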
